A study of Homo sapiens with 6 samples.

Results

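The genes described here encode the translation initiation and elongation factors, together with the kinases and methyltransferases named after them. Members were taken from the deposited count table by name: protein-coding genes whose symbol begins with EIF and a digit from 1 to 6, or with EEF and 1 or 2, leaving out the Y-linked EIF1AY and genes with 0 counts in all 6 libraries. The names matched 71 genes, of which 68 had counts, out of 60655 genes in the table (19955 protein-coding). IGF2BP3, called IMP3 in the file headers, is an RNA-binding protein, and the study asked which RNAs it binds in Merkel cell carcinoma (MCC), a neuroendocrine skin cancer. RNA was immunoprecipitated (RIP) from WaGa cells, an MCC line positive for Merkel cell polyomavirus, with an IGF2BP3 antibody or with IgG as the negative control, and sequenced (3 libraries per antibody). All 6 libraries came from this 1 line, of genotype WT and without treatment, so by the labels the groups differ only in the antibody. The labels number the libraries 1 to 3 in each group but do not state whether they are separate cultures, so the p-values measure the spread between these libraries, which may be technical.

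Initiation factors bring the small ribosomal subunit to the capped 5′ end of an mRNA, scan to the start codon and join the large subunit. eIF4 factors bind the cap, eIF2 carries the initiator tRNA and eIF3 holds the assembly together. Elongation factors then deliver aminoacyl-tRNA (eEF1A, recharged by the eEF1B complex) and move the ribosome along the message (eEF2). Many of these mRNAs are TOP mRNAs, which begin with a terminal run of pyrimidines and are translated under the control of mTOR. IGF2BP proteins bind RNA through several domains with a preference for CA-rich elements.

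Library totals were 9758759 to 14886414 counts, and the members held 3.0% to 3.5% of them. All 10 MCC markers examined were present (443 to 15857 counts). Of 11 markers of other cell types, 10 had at most 13 counts in any library. The exception was DCN, a fibroblast gene, with 479 to 762 counts, while the collagen genes COL1A1 and COL1A2 had at most 2. Both replicate 1 libraries stood apart: against replicates 2 and 3 of their own group the chi-square per degree of freedom was 16.3 to 19.7, compared with 2.13 and 3.06 between replicates 2 and 3. The replicate 1 libraries of the 2 antibodies deviated together (correlation 0.60). Replicates 2 and 3 correlated about as much across numbers (0.31 and 0.30) as within them (0.32 and 0.26). Their pairing by number is therefore not shown by the data. Because of replicate 1, edgeR was also run with replicate number as a blocking term. The blocked values are given where they change a call on a named gene.

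A short stretch of sequence is shown for the members on which the results turn. The first set spans the transcription starts that RefSeq lists for 3 TOP mRNAs and for EIF1AD, the member with the largest fold change. With the replicate block EEF2 was called higher and EEF1B2 lower, and EEF1A1 was not called. Each window is from RefSeq GRCh38.p14 and holds 10 bases before the start and 20 from the start on. Capitals mark a run of at least 5 C or T that opens with C within 3 bases of the start.
EEF2, minus strand, chr19:3985444-3985473: cgtcagcgttCTCTTCCgccgtcgtcgccg
EEF1A1, minus strand, chr6:73521013-73521042: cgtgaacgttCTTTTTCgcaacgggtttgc
EEF1B2, first listed start, plus strand, chr2:206159599-206159628: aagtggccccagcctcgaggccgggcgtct
EEF1B2, second listed start, plus strand, chr2:206159885-206159914: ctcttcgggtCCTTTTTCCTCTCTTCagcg
EIF1AD, minus strand, chr11:66002138-66002167: cagcgccggaagtacggttttcggagggat
A run of this kind stood at 13.0% of all 35116 promoter starts in the RefSeq table and at 19 of the 70 starts listed for members. It was searched on the coding strand only. EIF1AD had none in its window, nor had the first of the 2 starts of EEF1B2.

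The second set shows each ACACA, a CA-rich word chosen for the RNA preference of IGF2BP proteins, in the canonical GENCODE transcripts of EIF1AD and EEF2, with 10 bases on either side and the word in capitals.
EIF1AD, coding sequence, transcript bases 700 to 704: tggctgagaaACACAacaacaggaa
EIF1AD, coding sequence, transcript bases 801 to 805: ctgtttgttaACACAaaccgcagac
EIF1AD, 3′ UTR, transcript bases 1975 to 1979: agttaccacaACACAtgcctcatta
EEF2, 3′ UTR, transcript bases 2755 to 2759: gactgtcccgACACAgcgacgctcc
The word is common: 84.2% of the 14479 tested genes with a canonical transcript held it, as did 60 of the 64 members tested. Its density was 1.03 per kilobase in EIF1AD and 0.32 in EEF2, against a median of 1.07 over the tested members and 1.00 over the tested genes. A match describes these letters and is not evidence of a binding site.

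Levels between genes were compared by the authors' TPM, which is scaled by transcript length. EEF1A1, which delivers aminoacyl-tRNA, was far above the other members, at 11899 ± 1131 TPM in the IgG IP and 12239 ± 255 in the IGF2BP3 IP (mean ± SD, n = 3 each). It also held 1.31% to 1.73% of all counts of a library. Its near-identical processed copies, 39 EEF1A1 pseudogenes, together held 0.0111% to 0.0169%, and reads may be split between them and the parent gene. Its paralog EEF1A2, used in neurons and muscle, was listed at a mean of 22.7 TPM over the 6 libraries.

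The next levels were those of EEF1B2 (mean 2705 TPM), EIF3E (1409), EIF4G2 (1094), EEF2 (1060), EIF1 (646), EIF4A2 (627) and EIF4A1 (531). Levels also differed within paralog families. EIF4G2 exceeded its relatives EIF4G1 (15.4 TPM) and EIF4G3 (8.86 TPM). EIF4E, the cap-binding protein, stood at 235 TPM against 25.2 for EIF4E2 and 29.8 for EIF4E3. EIF5A, which relieves stalled ribosomes, stood at 217 TPM against 3.96 for EIF5A2. EIF4EBP2, an inhibitor of eIF4E, stood at 127 TPM, EIF4EBP1 at 46.0 and EIF4EBP3 at 1.66. EIF4A1 was below EIF1 and EIF4A2 in each of the 6 libraries. The order of EIF1 and EIF4A2, and that of EIF4G2 and EEF2, changed from library to library and is not resolved.

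**Figure D1:**
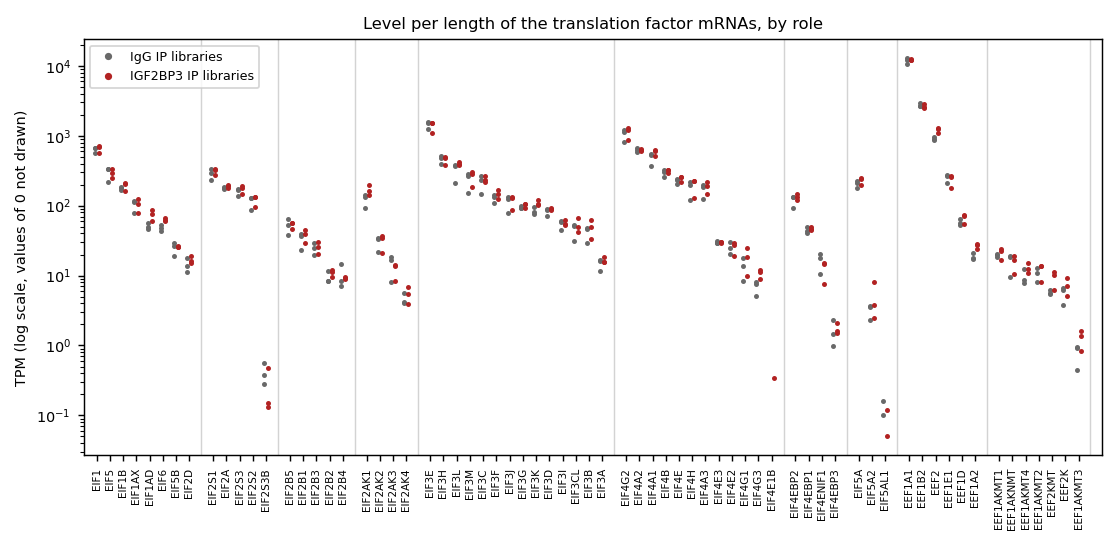
Level of each member in each library in TPM on a log axis, grouped by role (grey: IgG IP; red: IGF2BP3 IP; 3 libraries each). EEF1A1 is highest at a mean of 12069 TPM, and the spread between genes far exceeds that between antibodies.

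Several members were nearly lost from the count table although their TPM was high. EEF1G, a subunit of the eEF1B complex, had 0 counts in each library, which kept it out of the members, while its TPM was 443, 473 and 498 in the IgG libraries and 588, 529 and 584 in the IGF2BP3 libraries. All 3 IGF2BP3 libraries lay above all 3 IgG libraries in TPM, with a difference of 0.27 in mean log2(TPM + 1), while the median of all tested genes was itself shifted by 0.11 on that scale. In GENCODE 44, 99.7% of its exon bases are shared with a longer gene on the same strand (ENSG00000255508), which held 0 to 3 counts.

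EIF4A1, the RNA helicase of the cap complex, had 185 to 310 counts, which is 0.030 of the count its TPM would give (1 being the median of tested genes). Of its exon bases, 42.1% are shared with a lncRNA and 28.2% with the read-through gene SENP3-EIF4A1 on the same strand. The near-identical pair EIF3C and EIF3CL had 19 to 41 and 6 to 15 counts at 227 and 48.9 TPM, so the counts of these 3 genes cover a small part of their reads. The same ratio was 0.14 for EIF3L and 0.21 for EEF1E1. Reads of EIF3L may also be shared with a lncRNA (ENSG00000279738) that overlaps 41.1% of its exon bases and had 75 to 110 counts.

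The comparison of the IGF2BP3 IP with the IgG IP asked which of these mRNAs were enriched with IGF2BP3. Values are shares of a library, so more of an mRNA and less of the other RNAs cannot be told apart. None was called enriched at a fold change of at least 1.5 and an adjusted p under 0.05 in edgeR's quasi-likelihood test, a call made for 1.16% of the 14507 genes tested. None was called lower by that rule, as for all tested genes (0%). Of the 68 members 64 passed the filter on low counts. The 4 others were EIF2S3B (5 to 14 counts), EIF4E1B (0 to 2), EIF4EBP3 (0 to 3) and EIF5AL1 (1 to 16). By adjusted p alone, EIF1AD was higher (1 member, against 1.40% of tested genes) and no member was lower (0% of tested genes). At an unadjusted p under 0.05, 6 members were higher and 2 lower, against 9.72% and 3.10% of tested genes, which is close to the background. DESeq2, the test the study's methods name, put 3 members past the adjusted p (EIF1AD, EEF2 and EIF4G3; 3.20% of the genes it adjusted) and none past it in the lower direction. It put none past 1.5-fold as well, against 2.22% of those genes.

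The fitted log2 fold changes of the 64 members ran from -0.23 to 0.57 with a median of -0.05, beside a median of -0.01 for all tested genes. A total of 24 were above 0 and 40 below. For 50 members the 95% interval lay inside 1.5-fold in both directions. The other 14 included EIF1AD, EIF4G3, EEF2KMT, EIF3L and EEF1A2 at the upper bound, and genes with few counts or a divergent replicate 1. Without overlap between groups, 7 members lay above in the IGF2BP3 IP (10.9% of members, against 12.0% of tested genes) and 9 lay below (14.1%, against 8.69%).

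With the replicate block, 8 members were higher by adjusted p (12.5%, against 10.9% of tested genes) and 4 were lower (6.25%, against 5.23%). None of these reached 1.5-fold. The 8 higher were EIF1AD, EEF2, EIF4G3, EIF2AK1, EIF3L, EEF2KMT, EIF4G1 and EEF1A2. The 4 lower were EIF1AX, EIF3E, EIF3H and EEF1B2. In DESeq2 with the block EIF4G1, EEF1A2 and EEF2KMT were not called (against 6.52% of the genes it adjusted called higher). The other higher members and the 4 lower ones kept their calls there. The share of all genes called lower in that fit is not given here, so these 4 cannot be set against it. Without both replicate 1 libraries, a setting added after the data were seen, the same 8 were higher (7.85% of tested genes) but only EIF1AX was lower (1.66%), and EEF2KMT passed 1.5-fold.

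**Figure D2:**
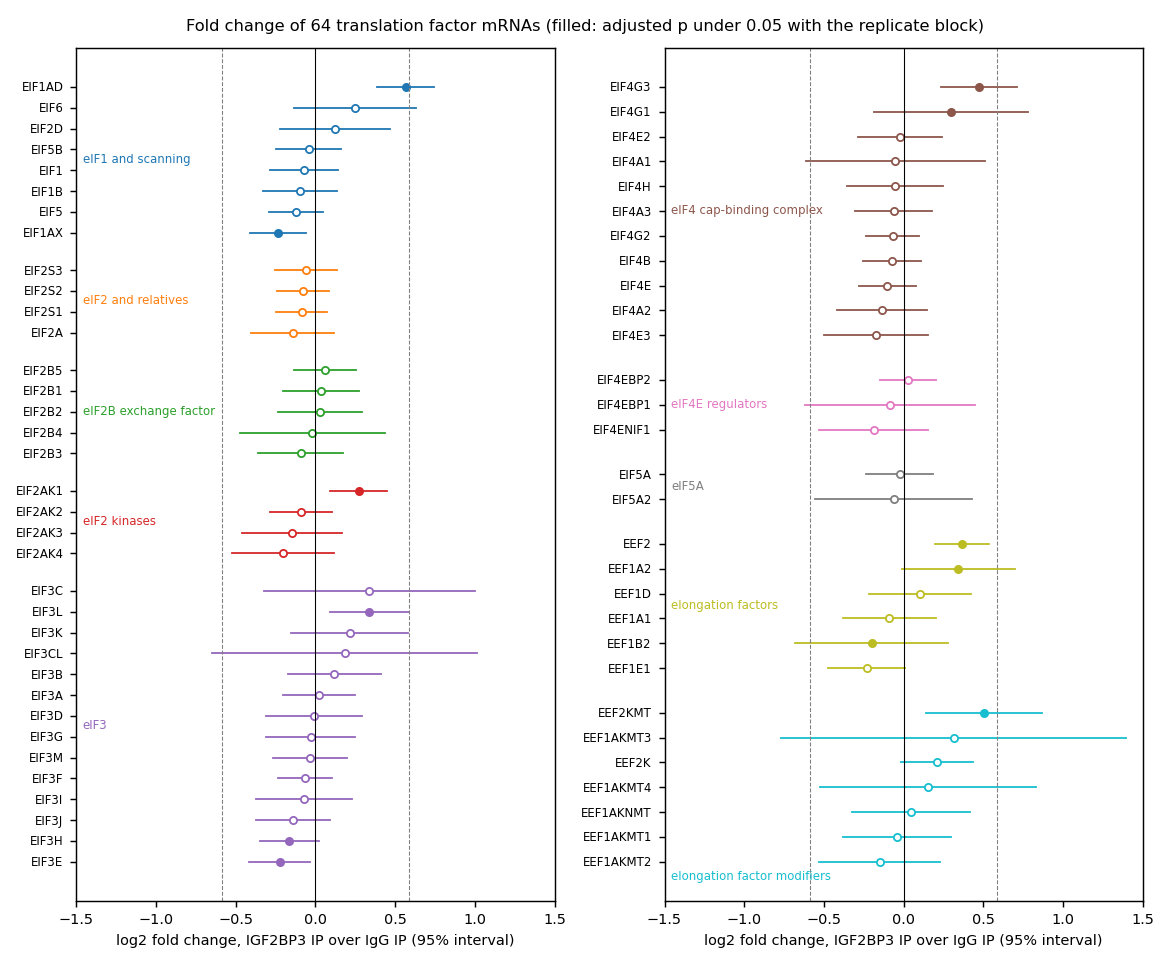
Log2 fold change (IGF2BP3 IP over IgG IP) of the 64 tested members by role, with the 95% interval from edgeR without the block. Filled circles are the 8 higher and 4 lower members called with the replicate block, and dashed lines mark 1.5-fold, which no estimate reaches.

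Among the scanning and subunit-joining factors, EIF1AD was the exception in size. It encodes a protein with an eIF1A-like domain and lies at chr11:65996545-66002176 (GRCh38, minus strand, 6 exons). Its normalized read counts, scaled to library size (CPM), were 51.9, 50.7 and 51.4 in the IgG libraries and 78.3, 75.3 and 74.2 in the IGF2BP3 libraries. All IGF2BP3 libraries were high and the groups were well apart. The fold change was 1.48 (log2 0.57 ± 0.08 SE; edgeR adjusted p = 0.0172; with the block 1.83e-06), just under 1.5-fold. The adjusted p rose to between 0.108 and 0.121 when replicate 2 or 3 of either group was left out, although the log2 value stayed between 0.54 and 0.58 over all 6 such omissions.

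EIF1AX, the eIF1A that works in scanning, moved the other way. Its CPM was 397, 377 and 402 in the IgG libraries and 339, 348 and 313 in the IGF2BP3 libraries. Every IGF2BP3 library was lower than every IgG library. The log2 fold change was -0.23 ± 0.08 SE (edgeR adjusted p = 0.239; with the block 0.00535). EIF1, which guards start codon choice, had a log2 fold change of -0.07 (edgeR adjusted p = 0.804). The 8 genes of this role had a median of -0.06.

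The 3 subunits of eIF2 and the initiator tRNA-binding EIF2A had log2 fold changes from -0.14 to -0.06, and none passed. The 5 subunits of eIF2B, which reloads eIF2 with GTP, lay between -0.09 and 0.06 with none called. Of the 4 eIF2 kinases, which shut down initiation under stress, 1 was called with the block. EIF2AK1, the heme-regulated kinase, had a CPM of 256, 271 and 272 in the IgG libraries and 301, 338 and 326 in the IGF2BP3 libraries. The groups did not overlap. Its log2 fold change was 0.27 ± 0.08 SE (edgeR adjusted p = 0.172; with the block 9.75e-04). The double-stranded RNA sensor EIF2AK2 stood at -0.09, the endoplasmic reticulum kinase EIF2AK3 at -0.15 and the amino acid sensor EIF2AK4 at -0.20, with edgeR adjusted p of 0.707, 0.713 and 0.598, and none of them passed with the block either. The difference between the kinases was not tested.

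Of the 14 eIF3 genes, EIF3L was the only one higher with the block. Its CPM was 91.4, 73.1 and 76.3 in the IgG libraries and 111, 95.5 and 96.9 in the IGF2BP3 libraries. Both replicate 1 libraries were the highest of their group and the groups were separated by a small gap. The log2 fold change was 0.34 ± 0.11 SE (edgeR adjusted p = 0.226; with the block 4.66e-04). EIF3E, another subunit, had a CPM of 1593, 1411 and 1374 in the IgG libraries and 1208, 1272 and 1266 in the IGF2BP3 libraries. All IGF2BP3 libraries were lower. The log2 fold change was -0.22 ± 0.08 SE (edgeR adjusted p = 0.300; with the block 0.00722).

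EIF3H, named here after its values were seen, had a log2 fold change of -0.16 (edgeR adjusted p = 0.458; with the block 0.0470). In EIF3E the difference between same-numbered libraries was -0.40 for replicate 1 and -0.15 and -0.12 for replicates 2 and 3, and without both replicate 1 libraries it was -0.13 (edgeR adjusted p = 0.0717). EIF3C and EIF3CL had log2 fold changes of 0.34 and 0.18 on their few counts (edgeR adjusted p = 0.677 and 0.882). The median over the 14 was -0.02.

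Of the 11 tested genes of the cap complex, only EIF4G3 and EIF4G1, scaffolds that link the cap to the ribosome, were called with the block. EIF4G3 had a CPM of 30.2, 34.2 and 31.1 in the IgG libraries and 40.6, 48.1 and 43.8 in the IGF2BP3 libraries. The groups did not overlap, and same-numbered libraries differed by 0.43, 0.49 and 0.50 on the log2 scale. The log2 fold change was 0.47 ± 0.11 SE (edgeR adjusted p = 0.0784; with the block 1.51e-04; DESeq2 adjusted p = 0.0250).

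EIF4G1 had a CPM of 39.0, 63.2 and 53.5 in the IgG libraries and 46.1, 77.5 and 68.6 in the IGF2BP3 libraries. Replicate 1 was the lowest in both groups, so the groups overlapped although each number was higher with IGF2BP3. Its log2 fold change was 0.30 ± 0.21 SE (edgeR adjusted p = 0.609; with the block 0.00480). The call ended in DESeq2 with the block (adjusted p = 0.0619). EIF4G2 stood at -0.07 (edgeR adjusted p = 0.745; with the block 0.374). The helicases EIF4A1, EIF4A2 and EIF4A3 stood at -0.05, -0.14 and -0.06, and the cap-binding EIF4E, EIF4E2 and EIF4E3 at -0.10, -0.02 and -0.17. None of these 6 passed with or without the block. The inhibitors EIF4EBP1 and EIF4EBP2 stood at -0.09 and 0.03, and EIF5A and EIF5A2 at -0.02 and -0.06, likewise without a call.

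Among the elongation factors, EEF2, the translocase, lies at chr19:3976056-3985463 (GRCh38, minus strand, 15 exons). Its CPM was 1645, 1776 and 1746 in the IgG libraries and 2244, 2187 and 2223 in the IGF2BP3 libraries. The lowest IGF2BP3 library exceeded the highest IgG library by more than the range of either group. The fold change was 1.29 (log2 0.37 ± 0.07 SE; edgeR adjusted p = 0.0551; with the block 1.04e-05; DESeq2 adjusted p = 0.00191). With 15174 to 28957 counts per library, it was measured far more deeply than EIF1AD (479 to 997 counts).

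EEF1B2, the exchange factor of eEF1A, had a CPM of 1916, 1195 and 1196 in the IgG libraries and 1580, 1038 and 1130 in the IGF2BP3 libraries. Replicate 1 was the highest library of both groups and the groups overlapped. The log2 fold change was -0.20 ± 0.21 SE (edgeR adjusted p = 0.744; with the block 0.0148), and without both replicate 1 libraries -0.14 (edgeR adjusted p = 0.0821). With IgG replicate 1 alone left out and no block, the direction turned (0.065). EEF1A1, at 17693, 14125 and 14953 CPM in the IgG libraries and 17268, 12948 and 13699 in the IGF2BP3 libraries, overlapped between groups. Its log2 fold change was -0.09 ± 0.13 SE (edgeR adjusted p = 0.825; with the block 0.171). EEF1A2, in contrast, had a CPM of 31.98, 26.5 and 21.3 in the IgG libraries and 37.5, 30.6 and 32.8 in the IGF2BP3 libraries. Its log2 fold change was 0.34 ± 0.16 SE (edgeR adjusted p = 0.409; with the block 0.0130). DESeq2 with the block did not call EEF1A2. EEF1E1, a scaffold of the tRNA synthetase complex despite its name, stood at -0.23 (edgeR adjusted p = 0.411; with the block 0.0559).

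Of the enzymes that modify elongation factors, EEF2KMT, which methylates eEF2, had a CPM of 9.76, 7.84 and 9.92 in the IgG libraries and 11.2, 14.4 and 13.2 in the IGF2BP3 libraries. The groups did not overlap, on 90 to 190 counts. The log2 fold change was 0.50 ± 0.16 SE (edgeR adjusted p = 0.218; with the block 0.0129). DESeq2 with the block did not call EEF2KMT. ALG1 on the other strand covers 31.4% of the exon bases of EEF2KMT. Whether the counting used strand is not given in the sources used here. EEF2K, the kinase that inactivates eEF2, had a CPM of 32.3, 36.2 and 37.6 in the IgG libraries and 39.4, 40.9 and 42.5 in the IGF2BP3 libraries. The groups did not overlap. Its log2 fold change was 0.21 ± 0.10 SE (edgeR adjusted p = 0.436; with the block 0.0792). The 7 modifying enzymes had a median of 0.15, which became -0.03 with a correction for transcript GC content, and 2 of them had at most 35 counts in any library.

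**Figure D3:**
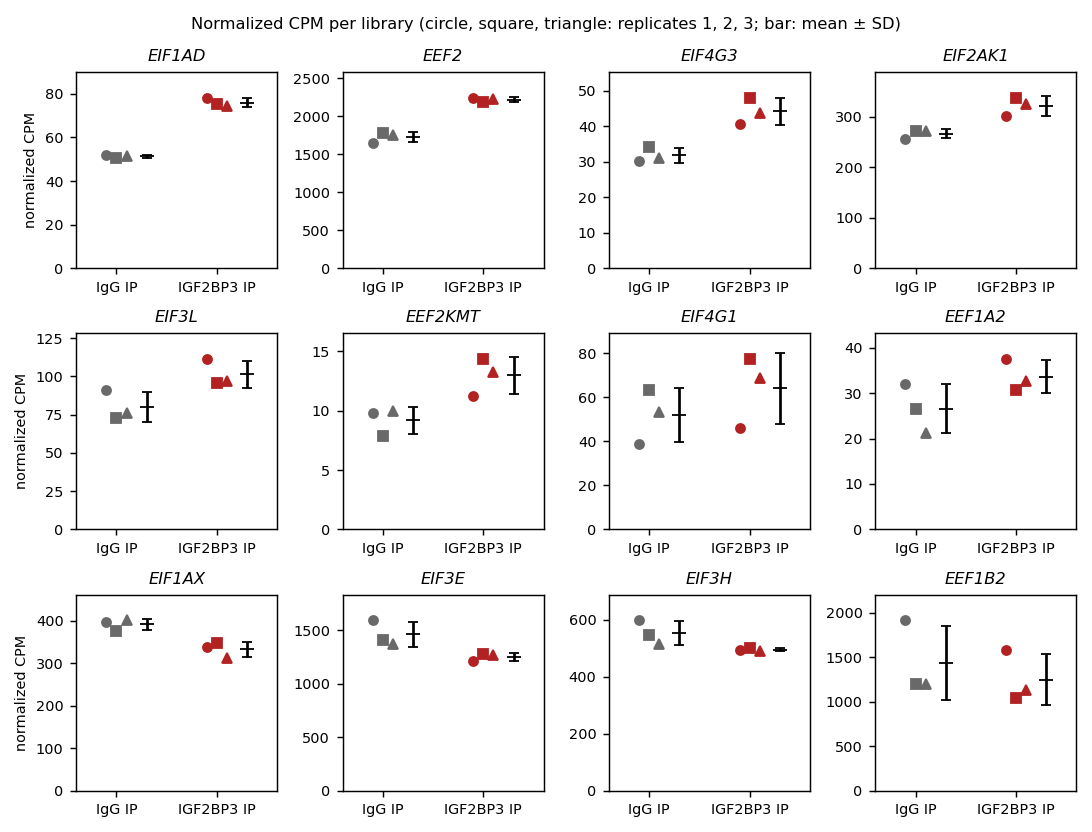
Normalized CPM of the 12 members called with the replicate block, per library (grey: IgG IP; red: IGF2BP3 IP; circle, square and triangle: replicates 1, 2 and 3; black bar: mean ± SD, n = 3), each panel starting at 0. EIF1AD and EEF2 are separated by wide gaps, whereas in EIF4G1 and EEF1B2 replicate 1 is apart from the others in both groups.

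The 8 TOP members tested were EEF1A1, EEF1B2, EEF1D, EEF2, EIF3E, EIF3F, EIF3H and EIF4B. Their median log2 fold change was -0.08, with 2 above 0 and 6 below. These 8 genes thus did not all share a direction, but of the 2 above 0 EEF1D was at 0.10 ± 0.14 SE (edgeR adjusted p = 0.817). EEF1G, also listed as a TOP mRNA, had 0 counts and was not tested. With the block, EEF2 was higher and EEF1B2, EIF3E and EIF3H were lower (against 10.9% and 5.23% of tested genes). With the GC correction added, only EEF2 stayed higher and only EEF1B2 lower (against 7.50% and 4.16%). EIF3E and EIF3H were then not called (edgeR adjusted p = 0.126 and 0.229). In the start windows shown above the pyrimidine run is 7 bases long in EEF2 and EEF1A1 and 16 at the second start of EEF1B2, while the first start of EEF1B2 has a run of 4, short of the 5 required.

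The fold changes of members followed transcript GC content. Across the 64 members Pearson's r was 0.55 and Spearman's rho 0.65, and r was 0.36 over the 14479 tested genes with a transcript; genes share libraries and are not independent replicates. The 8 members higher with the block had a median GC content of 52.3% and the 4 lower ones 38.7%. Transcript length showed no such relation (r = -0.0028 with log2 length). A loess correction for GC content in each library, which is built to remove this relation, brought r across members to 0.04.

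With this correction EEF2 (GC content 59.9%) went from 0.37 to 0.18, EEF1A2 (64.6%) from 0.34 to 0.11 and EIF4G1 (56.7%) from 0.30 to 0.15. EIF1AX (35.1%) went from -0.23 to -0.10 and EIF3E (37.2%) from -0.22 to -0.12. EIF1AD (49.4%) stood at 0.52 (edgeR adjusted p = 0.0308), EIF4G3 (46.3%) at 0.46 and EIF2AK1 (46.6%) at 0.26. The correction depends on GC content alone, and these 3 genes lie near the median of all tested genes (47.7%). They could therefore move little, and the contrast with EEF2 and EEF1A2 is not a test of them. With both the correction and the block, 5 members were higher by edgeR adjusted p (7.81%, against 7.50% of tested genes): EIF1AD (8.73e-06), EIF4G3 (2.25e-04), EIF2AK1 (8.97e-04), EIF3L (0.00122) and EEF2 (0.00797). The 4 lower (6.25%, against 4.16%) were EEF1B2, EIF5A, EIF3G and EIF4ENIF1 (the last pair named after their values were seen), of which only EEF1B2 was also lower without the correction. EIF4G1, EEF1A2 and EEF2KMT were no longer called higher (edgeR adjusted p = 0.159, 0.481 and 0.0801). Whether GC content moves with binding or with library preparation was not tested.

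**Figure D4:**
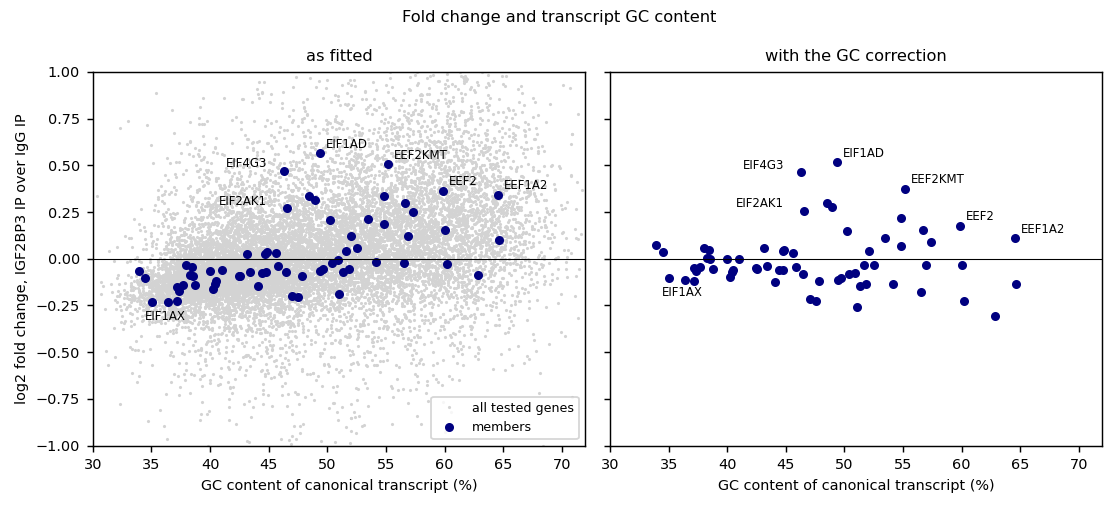
Log2 fold change (IGF2BP3 IP over IgG IP) against GC content of the canonical transcript in percent, as fitted (left, r = 0.55 over the 64 members in blue, all tested genes in grey) and with the GC correction (right, r = 0.04). EIF1AD, EIF4G3 and EIF2AK1, whose GC content is near the median of tested genes, move little, while EEF2 and EEF1A2 move toward 0. Grey genes beyond 1 on the vertical axis are not drawn.

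The departure of replicate 1 was larger than the antibody difference for several members. Averaged over both groups, replicate 1 minus the mean of replicates 2 and 3 was 0.65 on the log2 scale for EIF4EBP1, 0.61 for EEF1B2, 0.61 for EIF4A1, -0.62 for EIF4G1 and -0.75 for EEF1AKMT3. In all, 5 tested members passed 0.5 in this measure, compared with 2 (EIF1AD and EEF2KMT) in the antibody comparison. For EEF2 and EIF1AD it was -0.04 and 0.05. The value of EEF1AKMT3 came from the IgG IP (-1.64, on 5 counts in replicate 1), against 0.14 in the IGF2BP3 IP.

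**Figure D5:**
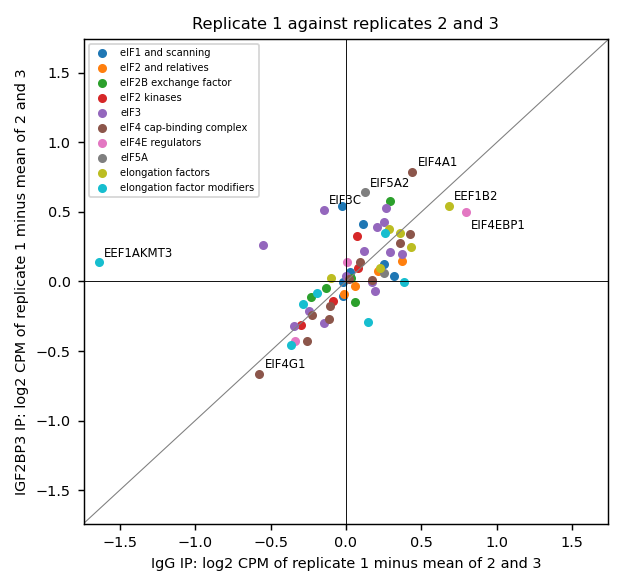
Log2 CPM of replicate 1 minus the mean of replicates 2 and 3 in the IgG IP (horizontal) and in the IGF2BP3 IP (vertical) for the 64 tested members, coloured by role; the grey line marks equal values. EEF1B2 and EIF4EBP1 lie high and EIF4G1 low in both groups.

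The rest of the translation machinery was examined by fixed lists. None of the 79 tested genes for cytosolic ribosomal proteins passed the adjusted p without the block, at a median of -0.12. With the block 8 of the 79 were higher and 24 lower, against 10.9% and 5.23% of all tested genes. With the GC correction added 5 of the 79 were higher and 30 lower, against 7.50% and 4.16% of all tested genes. RPSA, a small-subunit protein, stood at 0.47 (edgeR adjusted p = 0.408; with the block 7.36e-07) and RPL10 at 0.44 (edgeR adjusted p = 0.604; with the block 1.52e-06). RPL34 stood at -0.31 (edgeR adjusted p = 0.387; with the block 4.58e-04). Replicate 1 exceeded replicates 2 and 3 by a median of 0.63 over these genes. Of the 14 termination, recycling and poly(A)-binding genes none was higher and 3 were lower with the block (median -0.08), and none of the 3 stayed past the threshold when the GC correction was added (median -0.03). Of the 21 cytosolic aminoacyl-tRNA synthetases 2 were higher and 1 lower with the block, and 1 and 0 with the GC correction added (median 0.01 as fitted), led by QARS1, which charges the glutamine tRNA, at 0.60 (edgeR adjusted p = 0.0784; with the block 5.37e-04). Of 10 genes of the eIF2 stress response only TRIB3, a pseudokinase induced by this response, was called with the block, at 0.85 (edgeR adjusted p = 0.155; with the block 4.23e-07). ATF4, its central transcription factor, stood at -0.13 (edgeR adjusted p = 0.660). By 1.5-fold and adjusted p, DESeq2 without the block called 1 synthetase and 1 stress response gene higher (2.22% of all genes it adjusted). QARS1 and TRIB3 were the only genes of these lists whose edgeR estimate passed 1.5-fold.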

How the data were processed

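RNA from IGF2BP3 and IgG immunoprecipitates of WaGa cells (3 libraries each, 150 bp paired-end reads) was analysed from 2 deposited tables. Per the submitters' notes and methods, reads were aligned to GRCh38 with STAR 2.7.9a and quantified with RSEM on GENCODE 37. The authors deposited whole-number counts per gene, whose counting program and strand setting are not given in the sources used here, and TPM, used for levels. A deposited FPKM table was not used. Counts of genes passing filterByExpr were normalized by TMM and tested with edgeR 4.0.16 (R 4.3.3; glmQLFit, glmQLFTest), with Benjamini-Hochberg adjustment over all tested genes. A call needed 1.5-fold and an adjusted p under 0.05, and normalized CPM were used for display. Members and lists were chosen with earlier results of these data known. The fitted members named are those past the thresholds, the 10 with the smallest p, the 3 highest and 3 lowest fold changes, the 8 highest by TPM, and fixed paralog and kinase groups. Same-numbered libraries correlated in their deviations from the group means (0.60, 0.32 and 0.26), and the block pairs libraries by number. Replicates 2 and 3 also correlated across numbers (0.30 and 0.31). The values therefore set replicate 1 apart but do not show how replicates 2 and 3 pair. GC content, lengths and overlaps came from canonical transcripts of GENCODE 44, which matched 60481 of 60655 gene identifiers. Alternatives were DESeq2 1.42.0, limma 3.58.1, other normalizations, filters and pseudocounts, the block, the GC correction (loess, span 0.5) and omission of libraries. Few counts limited the 4 untested members. Of these, EIF4EBP3 had 0.042 of the count its TPM would give. It shares 73.2% of its exon bases with ANKHD1-EIF4EBP3 on the same strand.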

Additional observations from a re-analysis of the deposited data

How the results depend on the processing

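No member passed 1.5-fold and the adjusted p, except EIF1AD with library totals only (1 member) and EEF2KMT without both replicate 1 libraries (1). By adjusted p alone, 1 member was higher in the reported fit (1.4% of all tested genes), 2 with library totals only (1.6%), 2 with limma-voom (1.26%), 3 with DESeq2 (3.2%) and 3 without a filter beyond 1 count (1.85%). It was 0 with limma-trend on log2(TPM + 1) or log2(TPM + 0.1), which called 0 genes in the whole table, and EIF1AD stood there at 0.53 and 0.54. Leaving out 1 library gave 0 to 1 higher members, the 0 arising without IgG replicate 2 or 3 or IGF2BP3 replicate 2 or 3, where 19, 7, 0 and 23 genes were higher in the whole table. The replicate block gave 8 higher and 4 lower. DESeq2 with the block gave 5 (6.52% of all genes it adjusted) and 4 (share of all genes not given). The GC correction with the replicate block gave 5 and 4, and the omission of both replicate 1 libraries 8 and 1. The cause was not tested. The block alone gave no call to members other than its 8 and 4. The lower members EIF5A, EIF3G and EIF4ENIF1 of the fit with GC correction and block were not among these. The median of -0.05 became -0.0056 with library totals only, -0.024 without both replicate 1 libraries, -0.082 to 0.014 with 1 library omitted, and 0.12 on either TPM scale, where the median of all tested genes moved to 0.11 and 0.13.

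Some log2 fold changes changed sign, the largest of them at -0.20 as fitted (EEF1B2 and EIF2AK4). None of them was called without the block, and 1 of them (EEF1B2) was called lower with it. With the block and the GC correction together, EEF1B2 and EIF5A were called lower. The log2 fold changes changed sign for EIF5A and EIF4E2 with library totals only (0.020 and 0.020). On log2(TPM + 1) and log2(TPM + 0.1) they were 0.045 and 0.045 for EEF1A1, 0.093 and 0.093 for EIF4G2, 0.047 and 0.047 for EIF1, 0.28 and 0.28 for EIF4A1, 0.15 and 0.15 for EIF4A3, 0.14 and 0.15 for EIF5A, 0.37 and 0.44 for EIF5A2, 0.12 and 0.12 for EIF4E, 0.0019 and 0.0016 for EIF4E2, 0.079 and 0.081 for EIF4EBP1, 0.050 and 0.051 for EIF2AK2, and 0.18 and 0.21 for EIF2AK4. With the GC correction EIF5A2 and EIF4E stood at 0.076 and 0.038, and with the block added at 0.050 and 0.038. Without both replicate 1 libraries EIF5A stood at 0.046, EIF4E2 at 0.023, EIF4EBP1 at 0.037, EIF4EBP2 at -0.015 and EIF3CL at -0.020. With 1 library omitted the values ran from -0.23 to 0.012 for EEF1A1, -0.41 to 0.065 for EEF1B2, -0.12 to 0.017 for EIF1, -0.36 to 0.12 for EIF4A1, -0.16 to 0.013 for EIF4A3, -0.091 to 0.061 for EIF4E2, -0.27 to 0.22 for EIF4EBP1, -0.020 to 0.056 for EIF4EBP2, -0.069 to 0.067 for EIF5A and -0.30 to 0.11 for EIF5A2. In all, 51 of these values changed sign. Another 566 kept their direction and did not reach 1.5-fold with an adjusted p under 0.05. A crossing of the adjusted p alone, as for EEF2 with DESeq2, was not counted as a change. Few counts limit EIF3CL, EIF3C, EEF1AKMT3 and EEF1AKMT4, whose intervals reach past 1.5-fold.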
